A study of Mus musculus with 4 samples.

Results

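The chemokine receptor genes followed here, 8 of the 31053 genes counted, were Cxcr3, Cxcr6, Ccr2, Cx3cr1, Cxcr2, Ccr6, Ccr9 and Cxcr4, read in the 16 cell types and 4 libraries of a mouse spleen single-cell RNA study. They were chosen by name, as receptors that guide leukocytes into tissues, and all 8 were detected. The mice were C57BL/6. The groups were young wild type (young WT); wild type aged for 15 months, described as miR155 fl/fl (aged WT); mice of that age lacking miR-146a in the whole body (146aKO; the figures name it miR-146a knockout); and mice of that age lacking miR-146a everywhere and miR-155 in T cells (miR146aKO_miR155TCKO, the double knockout). The sources used here do not give the age or pool size of the young mice or the Cre line behind the T cell deletion. Spleens of 3 to 6 mice were pooled for each aged library, and each group had 1 library. Sorted live CD45+ cells of low scatter (FSC-low, SSC-low) were run on the 10x Genomics platform, so there were no replicates and no test between groups. That gate is one for lymphocytes, so the monocytes and granulocytes in each library are those that passed it. Its part in their numbers was not tested.

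Chemokine receptors are surface proteins that span the membrane, couple to inhibitory G proteins and turn a gradient of a secreted chemokine into directed migration and firmer adhesion. In the spleen they decide whether lymphocytes stay in the white pulp, settle in the marginal zone or red pulp, or leave for inflamed tissue, gut, liver or marrow, and they mark states as much as destinations. Naive T cells carry receptors for lymphoid tissue, effector and memory T cells gain receptors for inflamed tissue, and monocytes and neutrophils use receptors of their own to leave the marrow and patrol vessels.

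Across the libraries, 5702 to 7626 barcodes and 17561683 to 22399381 UMIs (unique molecular identifiers, 1 per captured RNA molecule) were counted, with a median of 2054 to 2649.5 UMIs per annotated cell. The authors' names covered 24143 of 27577 barcodes. Any 2 libraries shared 48 to 91 barcodes. Levels are UMIs per 1000000 UMIs of that cell type in that library (CPM), and their intervals, like all those given here, are at 95% and cover counting error only. The names were checked against marker genes. In cells named Nai Cd4 (naive CD4 T) of 146aKO the memory T list (Cd44, S100a4, Itgb1) was at 1088 CPM and the naive T list (Lef1, Ccr7, Dapl1) at 446 CPM, so the name did not hold there by these lists. The germinal centre B list (Mef2b, Fas, Mki67) summed to 19.9 to 67.1 CPM in cells named GC Centroblast and 461 to 823 CPM in cells named GC Centrocyte. Early Act Cd8 and Gran (granulocytes) of aged WT and Ly6c- Mono of young WT held fewer than 30 cells each and entered no ratio. Neither deletion could be checked in these counts, since neither miRNA is measured. Neutrophil list genes were at 3.74 to 23.2 CPM in the 11 lymphocyte types of young WT and 6.35 to 17.8 CPM in aged WT, but at 422 to 743 CPM in 146aKO and 531 to 911 CPM in the double knockout. The part of such free RNA in the lymphocyte levels below was not tested beyond the values given.

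The 2 deleted miRNAs act through a seed at bases 2 to 8 that pairs with matching letters in a target's 3′ UTR. The mature sequences are shown because the receptors were searched for their matches, with the seed in capitals (5′ to 3′, RefSeq, GRCm38.p6).
mmu-miR-146a-5p: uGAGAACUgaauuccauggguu
mmu-miR-155-5p: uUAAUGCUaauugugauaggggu
On the transcript strand of annotated 3′ UTRs (GRCm38), the letters AGTTCTC, the match to bases 2 to 8 of miR-146a, were found in Cxcr6 alone of the 8 receptors. AGCATTA, the match to bases 2 to 8 of miR-155, was found in Cxcr2 and Ccr9, in Ccr9 followed by the A that makes an 8mer. These 3 windows are printed with the matching letters in capitals.
Cxcr6, chr9:123811269-123811297, plus strand, miR-146a: tagagatctcaAGTTCTCtttttaccaag
Cxcr2, chr1:74160165-74160193, plus strand, miR-155: atactcacaacAGCATTAttcatcatgaa
Ccr9, chr9:123783313-123783342, plus strand, miR-155: ataatgcagagAGCATTAAaggaagacacc
For comparison, 11.9% of the 21013 genes with an annotated 3′ UTR held AGTTCTC and 8.83% held AGCATTA. The longest 3′ UTR of a receptor ranged from 73 bases in Ccr6 to 3966 bases in Ccr9, against a median of 961 bases over all these genes. A match is a description of letters and says nothing of whether the miRNA acts there.

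Of the receptors, 4 lie on mouse chromosome 9 of mm10, where Cx3cr1 spans chr9:119901616-120069879 on the minus strand. Ccr9 (chr9:123678439-123784330), Cxcr6 (chr9:123806475-123811760) and Ccr2 (chr9:124101950-124113557) follow on the plus strand, with 22144 bases between the Ccr9 and Cxcr6 genes and 290189 bases between Cxcr6 and Ccr2. Cxcr3 is on the X chromosome (chrX:101731535-101734269, minus), Cxcr2 and Cxcr4 on chromosome 1 (chr1:74153989-74161246, plus, and chr1:128588199-128592293, minus), and Ccr6 on chromosome 17 (chr17:8236043-8257141, plus). Cxcr6 lies inside Fyco1, on the other strand, and the annotated span of Cx3cr1 overlaps several genes; the sources used here do not say whether counting used strand. Fyco1 was at 17.4 to 30.5 CPM in Mem Cd8 and 17.9 to 22.9 CPM in Fo B, while Cxcr6 ran from 293 to 331 CPM in the first and from 0.637 to 3.02 CPM in the second.

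Each receptor had its own place in the spleen. Cxcr6 was led by memory CD8 T cells (Mem Cd8), Ccr2 by Ly6c+ monocytes (Ly6c+ Mono), Cx3cr1 by Ly6c- monocytes (Ly6c- Mono), Cxcr2 by granulocytes, and Ccr6 by marginal zone (MZ B) and follicular (Fo B) B cells. Ccr9 was led by naive CD8 T cells (Nai Cd8) and by the type named DC/Mac (dendritic cells and macrophages), and Cxcr3 by memory CD4 T cells (Mem Cd4), Mem Cd8 and natural killer (NK) cells. Cxcr4 was low in all types, with a highest level of 95.8 CPM. By median CPM over libraries, the leading type stood clear of the next, with ranges that did not overlap, for Cxcr6, Ccr2, Cx3cr1 and Cxcr2. The ranges of the leading pair overlapped for Cxcr3, Ccr6, Ccr9 and Cxcr4, so their order was not set.

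**Figure D1:**
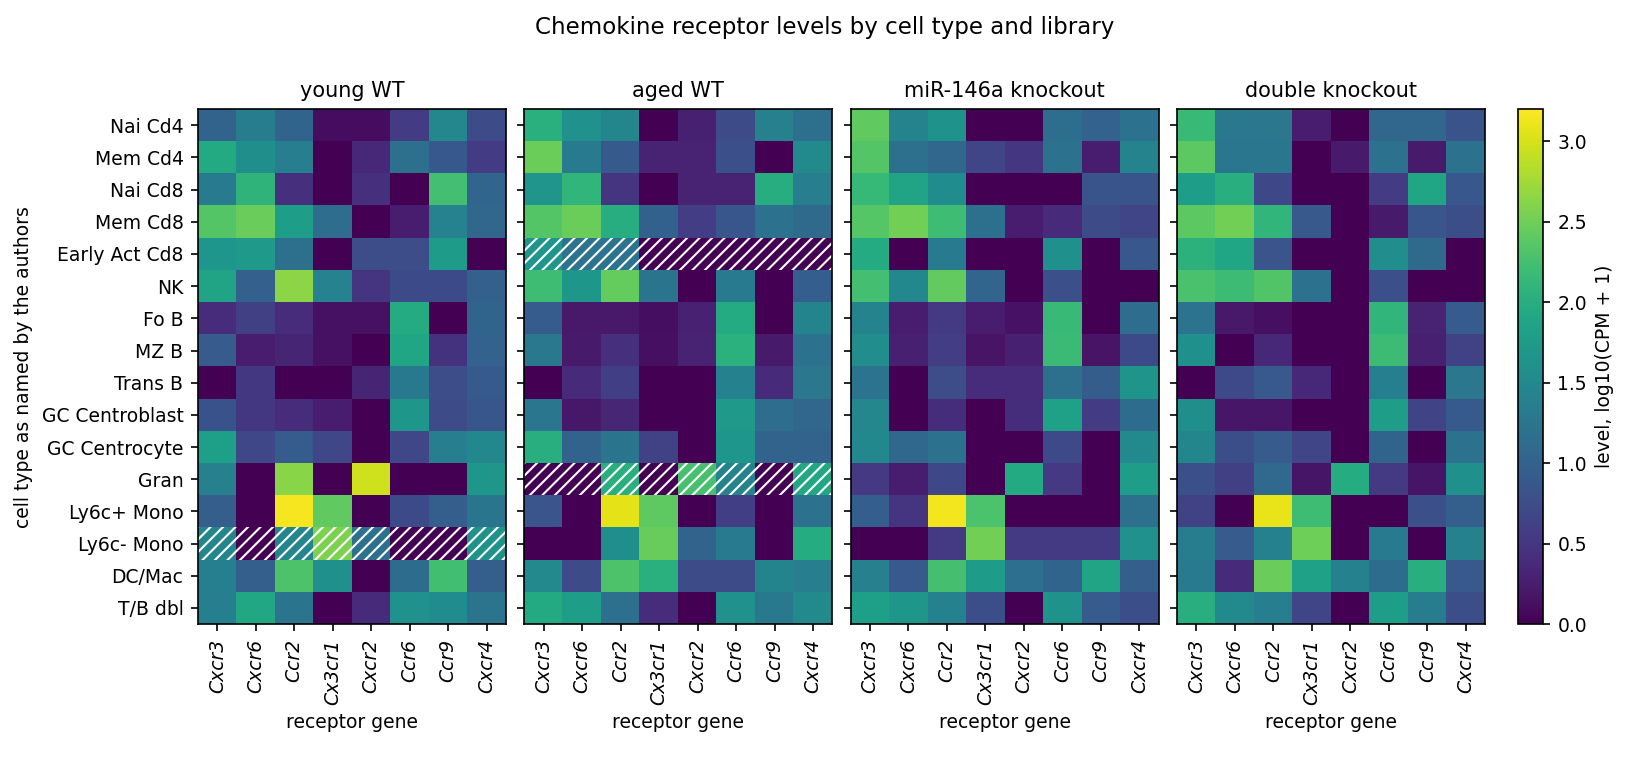
Level of the 8 receptors (columns) in each cell type (rows) with 1 panel per library; colour is log10(CPM + 1), and hatched rows held fewer than 30 cells. Ccr2 in Ly6c+ Mono is the brightest field of the aged libraries, at 1183 to 1400.4 CPM, and Cxcr4 is dim throughout.

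A ratio of 2 libraries was taken where both held at least 30 cells of a type and at least 20 UMIs of the gene together, and "higher" or "lower" below means at least 1.5-fold, a statement of size. Between aged and young WT, 44 receptor-by-type ratios could be taken, and 21 were higher and 7 lower. Over all genes and types the background was 9.87 percent higher and 7.97 percent lower. The median log2 ratio was 0.46 for the receptors and 0.01 for all genes. Cxcr3 gave 9 of the 21 higher ratios, out of 10 taken, and Cxcr4 gave 7, out of 8 taken. The types counted include T/B dbl, the authors' doublet type, where the Cxcr3 ratio with age was 3.86 (2.18 to 7.19).

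Between 146aKO and aged WT, 12 of 48 ratios were higher and 15 lower, against a background of 9.96 percent and 11.2 percent. The median log2 ratio of the receptors, -0.03, was close to that of all genes, -0.04. Cxcr3 was higher in 5 of 11 types and lower in 1, Ccr9 lower in 4 of 5 and higher in 1, and Cxcr4 lower in 6 of 11 and higher in 2. Between the double and 146aKO, 9 of 50 ratios were higher and 13 lower, against 8.9 percent and 7.91 percent. All 7 Cxcr4 ratios in this comparison were lower. Between the double knockout and aged WT, which uses libraries of both comparisons before it, 8 of 51 ratios were higher and 19 lower, against 9.1 percent and 8.91 percent.

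Many of these ratios rest on few UMIs. The interval lay wholly beyond 1.5-fold for 7 higher ratios and 1 lower with age, for 3 and 5 in 146aKO against aged WT, and for 2 and 0 in the double against 146aKO. Cxcr2 had enough UMIs only in the last of these. The counts by interval were not set beside a share over all genes.

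**Figure D2:**
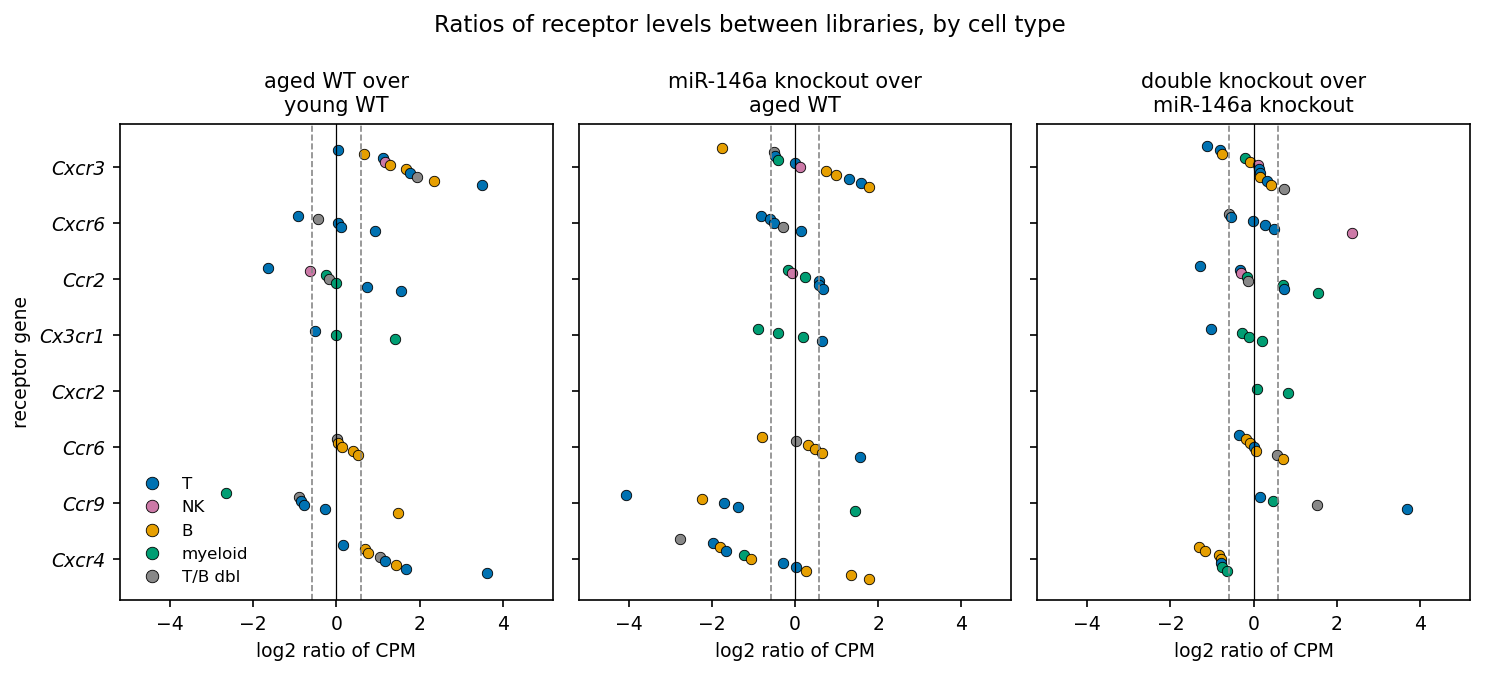
Ratio of 2 libraries (log2 of the CPM ratio) for each receptor in 3 comparisons; 1 point is 1 cell type, coloured by class, and dashed lines mark 1.5-fold. Cxcr3 and Cxcr4 lie mostly to the higher side with age, and all 7 Cxcr4 points lie beyond 1.5-fold on the lower side in the double against 146aKO.

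Cxcr3, the receptor for the interferon-induced chemokines Cxcl9 and Cxcl10 and a mark of type 1 effector and memory cells, differed widely between libraries in cells that the authors named naive. In naive CD4 T cells (Nai Cd4) it stood at 9.45 CPM for young WT (32 UMIs), 106 for aged WT (119), 258 for 146aKO (196) and 147 for the double knockout (187). No counting intervals of the first 3 libraries overlapped (6.47 to 13.3, 87.7 to 127 and 223 to 297 CPM). The ratio was 11.2 (7.52 to 17.1) with age, 2.44 (1.93 to 3.09) in 146aKO against aged WT, and 0.571 (0.465 to 0.702) in the double against 146aKO. Cells with a UMI of Cxcr3 made up 1.58, 15.7, 31.2 and 19.0% of Nai Cd4 in the same order, and 0.580, 8.11, 19.5 and 11.9% once each cell was thinned to 1000 UMIs. In transitional B cells (Trans B), where a type 1 receptor would not be looked for, the thinned share was 0% in 3 libraries and 0.364% in 146aKO, with median depths of 1797 to 2061.5 UMIs against 1955 to 2382.5 in Nai Cd4.

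The memory T list moved with Cxcr3 in Nai Cd4, at 64.7, 467, 1088 and 565 CPM over the same libraries. The regulatory T list (Foxp3, Il2ra, Ikzf2) was at 18.02, 225, 722 and 388 CPM, and the naive T list at 1862, 1117, 446 and 1039 CPM. Nai Cd4 cells with Cxcr3 held 128, 750, 700 and 674 CPM of S100a4, a calcium-binding protein of memory T cells, against 14.8, 102, 506 and 188 CPM in those without. They also held less Lef1, a transcription factor of naive T cells, at 207, 164, 139 and 166 CPM against 771, 488, 207 and 414. S100a4 was above and Lef1 below the rest in all 4 libraries. In the Nai Cd4 cells with no UMI of S100a4, Itgb1 or Cd44, Cxcr3 was lower but in the same order, at 3.58, 29.8, 168 and 64.2 CPM. These were 1271, 348, 140 and 386 cells, with ratios of 8.32 (3.92 to 18.8), 5.62 (3.40 to 9.53) and 0.383 (0.256 to 0.574). At this depth a cell with RNA of these genes can lack a UMI of them. The naive T list was not read in the kept cells, so they are not shown to be naive.

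In naive CD8 T cells Cxcr3 was at 20.6 CPM for young WT, 45.1 for aged WT, 136 for 146aKO and 62.1 for the double knockout, from 42 to 49 UMIs each. The order of the libraries was that of Nai Cd4, with ratios of 2.19 (1.41 to 3.37), 3.02 (1.95 to 4.69) and 0.456 (0.298 to 0.696). Against aged WT, the double knockout stood at 1.39 (1.10 to 1.77) in Nai Cd4 and 1.38 (0.890 to 2.13) in Nai Cd8, both inside 1.5-fold. The memory T list was at 38.3, 50.5, 220.3 and 49.2 CPM in Nai Cd8 and the naive T list at 2072, 1642, 858 and 1669 CPM, so that 146aKO stood apart in both. In the Nai Cd8 cells with no UMI of S100a4, Itgb1 or Cd44, Cxcr3 was at 18.4, 38.6, 137 and 43.5 CPM, from 693, 221, 55 and 213 cells. The ratio of 146aKO to aged WT was then 3.54 (2.04 to 6.14). The same limit holds for these cells, which are not shown to be naive.

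Memory CD8 T cells held Cxcr3 at a level that hardly varied, 218 CPM for young WT, 222 for aged WT, 224 for 146aKO and 244 for the double knockout. The ratios were 1.02 (0.867 to 1.21), 1.01 (0.856 to 1.18) and 1.09 (0.931 to 1.27), so differences of 1.5-fold lay outside the counting intervals. Memory CD4 T cells had 88.5 CPM in young WT and 303, 219.5 and 246 CPM in the aged libraries. The largest gap lay between young and aged WT, at a ratio of 3.43 (2.63 to 4.52), while 146aKO stood at 0.724 (0.615 to 0.853) of aged WT. NK cells followed, with 72.01 CPM in young WT and 161, 175 and 189 CPM in aged WT and the knockouts, a ratio of 2.24 (1.38 to 3.65) with age and 1.09 and 1.08 thereafter. In early activated CD8 cells (Early Act Cd8), Cxcr3 was at 46.6 CPM in young WT, 90.9 in 146aKO and 113 in the double knockout.

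**Figure D3:**
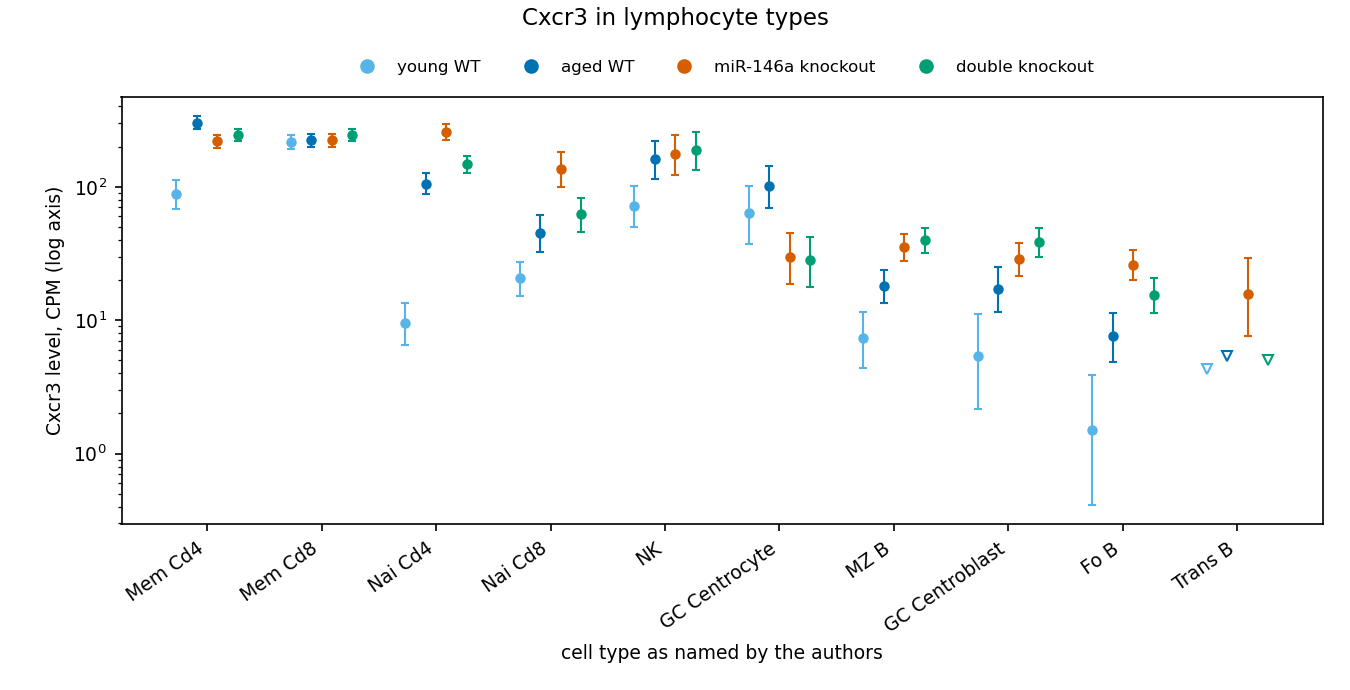
Cxcr3 level (CPM, log axis) in 10 lymphocyte types; points are 1 library each, bars the exact Poisson 95% interval, and open triangles the upper limit where no UMI was seen. Nai Cd4 goes from 9.45 CPM in young WT to 258 CPM in 146aKO, while Mem Cd8 stays between 218 and 244 CPM.

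In Fo B, MZ B and GC Centroblast cells Cxcr3 was higher in aged than in young WT and higher in 146aKO than in aged WT, as in the naive T cells. Among these B types it was lower in the double knockout than in 146aKO in Fo B only. Follicular B cells were at 1.51 CPM for young WT (4 UMIs), 7.64 for aged WT (24), 26.1 for 146aKO (63) and 15.5 for the double knockout (46). Ratios were 5.05 (1.74 to 20.04), 3.41 (2.10 to 5.71) and 0.596 (0.398 to 0.885). Marginal zone B cells were at 7.34, 17.99, 35.6 and 39.8 CPM, and GC Centroblast cells at 5.36, 17.2, 28.9 and 38.5 CPM. In both, the double knockout stood above aged WT, at 2.21 (1.55 to 3.19) and 2.24 (1.42 to 3.62). It stood at 1.119 (0.815 to 1.54) and 1.33 (0.915 to 1.95) times 146aKO, both inside 1.5-fold.

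Of the 20 B cell levels (5 types in 4 libraries), 18 were under 20% of the highest type in their library and so within reach of free RNA. The 5 T cell markers (Cd3d, Cd3e, Cd3g, Trbc2, Cd5) did not move with Cxcr3 in Fo B, where the T cell list was at 105, 70.1, 45.5 and 42.2 CPM. Per 100 T cell marker UMIs, Fo B held 1.44, 10.9, 57.3 and 36.8 UMIs of Cxcr3, MZ B 6.03, 32.1, 86.4 and 105, and GC Centroblast 4, 21.4, 57.0 and 65.3. In the 4 naive and memory T types that figure ran from 0.175 to 4.75 in young WT and was at most 5.12 in the other libraries. In NK cells it was 17, 17.5, 20 and 17.9, above Fo B in the WT libraries. The part of free RNA in the B cell levels was not tested beyond these values. In B cells with no UMI of a T cell marker the ratios with age were 3.88 in Fo B (1.30 to 15.6), 2.92 in MZ B (1.51 to 6.07) and 3.40 in GC Centroblast (1.27 to 11.4). The miR-146a knockout stood at 3.72 (2.20 to 6.53) times aged WT in such Fo B cells.

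The GC Centrocyte type went the other way in the knockouts, with 63.7, 102, 29.9 and 28.1 CPM of Cxcr3 in the order above and a ratio of 0.295 (0.163 to 0.523) for 146aKO against aged WT. Its T cell list was at 1745 and 1780 CPM in the WT libraries and 359 and 476 CPM in the knockouts. Among GC Centrocyte cells with no T cell marker UMI the ratio was 0.797 (0.230 to 3.48), from 10 against 4 UMIs. Trans B held no UMI of Cxcr3 in 3 libraries, where 0 UMIs in 334 to 409 cells allow a share of cells with a UMI of up to 0.898%, and 10 UMIs (15.8 CPM) in 146aKO.

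Ccr6 and Tbx21 had higher values in marginal zone B cells with Cxcr3 than in those without in each library, on few cells. Ccr6 was seen in 3 of 15, 14 of 40, 36 of 63 and 32 of 66 MZ B cells with Cxcr3 (57.1% in 146aKO), against 15.98, 21.5, 34.3 and 31.0% of those without; this pair was chosen after its values were seen. After thinning the shares were 16.7, 14.3, 36.0 and 18.2% against 6.85, 9.14, 13.1 and 13.8%, from 6 to 25 cells with Cxcr3 per library. The exact binomial interval of the thinned share lay above the share without Cxcr3 in 146aKO (17.97 to 57.5%) and held it in the other libraries. Before thinning, the median depth was 2592 to 3714 UMIs in MZ B cells with Cxcr3 and 2189.5 to 3141 in those without, and its part in the difference was not tested. Tbx21, the T-bet transcription factor and likewise a later choice, was at 18.03, 42.1, 19.8 and 23.7 CPM in MZ B cells with Cxcr3, from 1, 5, 5 and 5 UMIs. It was at 1.18, 3.31, 4.24 and 9.38 CPM in those without. The T cell marker Cd3d was at 72.1, 58.9, 11.9 and 4.75 CPM in the cells with Cxcr3, from 4, 7, 3 and 1 UMIs. In those without it was at 24.9, 11.4, 13.3 and 11.4 CPM. Trbc2 was at 361, 16.8, 15.9 and 19.0 CPM against 50.1, 27.6, 19.6 and 12.3 CPM. The part of T cell RNA in these values was not tested.

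Cxcr6, the receptor for the membrane-bound chemokine Cxcl16 and a mark of tissue-resident T cells of liver and lung, was a memory CD8 gene in every library. Mem Cd8 held 293 CPM for young WT, 299.8 for aged WT, 331 for 146aKO and 326 for the double knockout, from 365 to 470 UMIs. The ratios were 1.02 (0.888 to 1.18), 1.10 (0.964 to 1.26) and 0.987 (0.865 to 1.13), all inside 1.5-fold. Memory CD4 T cells held far less, at 37.7, 20.1, 14.1 and 17.2 CPM.

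Naive CD8 T cells were the next highest type for Cxcr6, at 118 CPM for young WT, 127 for aged WT, 72.5 for 146aKO and 101 for the double knockout. The miR-146a knockout was the lowest, at 0.572 (0.356 to 0.886) of aged WT. A UMI was seen in 27.5, 33.3, 21.5 and 23.8% of Nai Cd8 cells, but in 0.113 to 0.539% of Fo B cells, at median depths of 2967.5 to 3490 and 1678 to 2296 UMIs. In the WT libraries Nai Cd8 cells with Cxcr6 had as much Lef1 as those without, while the memory T list genes went both ways on few UMIs. Their Lef1 was at 669, 565, 184 and 452 CPM against 640, 519, 246 and 470 CPM in the cells without Cxcr6. Their Cd44, a memory marker, was at 1.48, 6.42, 52.5 and 15.8 CPM, from 1, 2, 4 and 3 UMIs, against 10.6, 12.9, 14.9 and 20.6 CPM. In young and aged WT their S100a4 was at 2.96 and 9.62 CPM against 6.48 and 4.85 CPM. Their Itgb1 was at 28.1 and 22.5 CPM there, against 23.6 and 38.8 CPM.

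In NK cells Cxcr6 was at 8.47 CPM for young WT, 48.4 for aged WT, 30.04 for 146aKO and 154 for the double knockout, from 4, 12, 6 and 31 UMIs. The double knockout stood above both others, at 5.12 (2.11 to 15.0) times 146aKO and 3.18 (1.59 to 6.79) times aged WT. These are counts from 49 to 228 cells. In Nai Cd4 Cxcr6 was at 20.98, 40.0, 26.3 and 18.1 CPM, which did not follow Cxcr3 there. In B cells it was at most 10.9 CPM.

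Within Mem Cd8, the share of cells with Cxcr6 was larger among cells with Cxcr3 than among those without in 3 libraries. After thinning, Cxcr6 was seen in 38.0% of cells with Cxcr3 and 14.8% of those without in young WT, 28 and 19.0% in aged WT, and 28.3 and 17.8% in the double knockout. In 146aKO the shares were 19.1 and 26.1%. Only in young WT were the intervals apart (26.8 to 50.3% with Cxcr3). Cells with Ccr2, a pair chosen after its values were seen, held Cxcr6 after thinning in 58.8, 30.2, 38.6 and 29.1%, from 17, 43, 57 and 55 cells. The shares without Ccr2 were 17.4, 19.95, 22.5 and 18.8%. The intervals were again apart in young WT only (32.9 to 81.6% with Ccr2). Unthinned young WT cells with Ccr2 held more of the NK genes Ncr1 (130 against 24.5 CPM) and Klrb1c (173 against 52.8). They held less Eomes (59.4 against 83.0 CPM).

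Ccr2, the receptor for Ccl2 that lets classical monocytes leave the marrow, was highest in Ly6c+ Mono, with 1418 CPM for young WT, 1183 for aged WT, 1400.4 for 146aKO and 1248 for the double knockout. The 4 libraries lay within 1.5-fold of each other, and 86.8 to 96.2% of these cells had a UMI, against 0.0635 to 0.591% of Fo B cells (median depths of 4442 to 6776.5 and 1678 to 2296 UMIs). NK cells came next, at 434 CPM in young WT and 278, 265 and 213 CPM in the aged libraries. The young library was the highest, and aged WT stood at 0.641 (0.481 to 0.846) of it. DC/Mac held 200.3, 199.5, 177 and 291 CPM, with the double knockout at 1.64 (1.31 to 2.06) times 146aKO.

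Among T cells, Ccr2 in Mem Cd8 was at 59.4 CPM for young WT, 98.8 for aged WT, 158 for 146aKO and 126 for the double knockout. It was higher with age (1.66, 1.25 to 2.23) and in 146aKO against aged WT (1.59, 1.28 to 1.99). In Nai Cd4 the levels were 9.75, 28.5, 42.1 and 17.3 CPM, the order of Cxcr3 in the 3 libraries up to 146aKO. The ratios were 2.92 (1.74 to 4.90), 1.48 (0.878 to 2.50) and 0.412 (0.228 to 0.731). Only 16, 18, 22 and 16 Nai Cd4 cells had a UMI of Ccr2. Their S100a4 was at 824, 1033, 1520 and 1678.5 CPM against 7.47, 164, 512 and 238 CPM in the rest. Their Lef1 was at 515, 89.0, 140 and 217 CPM against 763, 453, 185 and 371 CPM. Mem Cd4 went the other way with age, from 22.1 CPM (17 UMIs) to 7.02 CPM (7 UMIs). Granulocytes held 433 CPM in young WT and 105 in aged WT, but from 18 and 4 UMIs, and 3.94 and 11.4 CPM in the knockouts. The classical monocyte list was at 409, 8240, 7033 and 7740 CPM in those granulocytes; its part in these values was not tested.

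Cx3cr1, the receptor for the membrane-bound chemokine Cx3cl1 that holds patrolling monocytes on vessel walls, was highest in Ly6c- Mono, with 366 CPM for young WT (27 cells), 287 for aged WT, 331 for 146aKO and 306 for the double knockout. All intervals overlapped (239 to 537, 194 to 410, 277 to 393 and 255 to 365 CPM). Ly6c+ Mono held 259, 256, 194 and 159 CPM, lowest in the double knockout, which stood at 0.619 (0.458 to 0.837) of aged WT. In DC/Mac the level was 39.6, 106, 56.8 and 65.8 CPM, highest in aged WT, with a ratio of 2.68 (1.41 to 5.18) with age and 0.534 (0.315 to 0.924) in 146aKO. The macrophage list in DC/Mac was at 834, 31.0, 3959 and 1193 CPM and the conventional dendritic list at 718, 616, 363 and 395 CPM, so the makeup of the type differed between libraries; its part in the Cx3cr1 levels was not tested. Cx3cr1 was near the floor in lymphocytes. Mem Cd8 held 12.9, 8.98, 14.1 and 6.94 CPM, from 10 to 19 UMIs, and Nai Cd8 and Early Act Cd8 held no UMI.

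Many Ly6c+ Mono cells held UMIs of both Ccr2 and Cx3cr1. Of the cells with Ccr2, 62.7, 54.5, 62.9 and 51.0% also had a UMI of Cx3cr1, and only 2 to 10 cells per library lacked Ccr2. After thinning, Cx3cr1 was seen in 26.5, 17.4, 22.4 and 12.5% of cells with Ccr2 and 21.1, 26.7, 20.7 and 21.4% of those without. The intervals overlapped in every library. In Ly6c- Mono, by contrast, 1 to 5 cells per library had Ccr2. Cx3cr1 was seen in 40.0, 43.1, 43.8 and 41.6% of those without Ccr2, and in 20.8, 21.3, 28.7 and 26.4% after thinning.

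**Figure D4:**
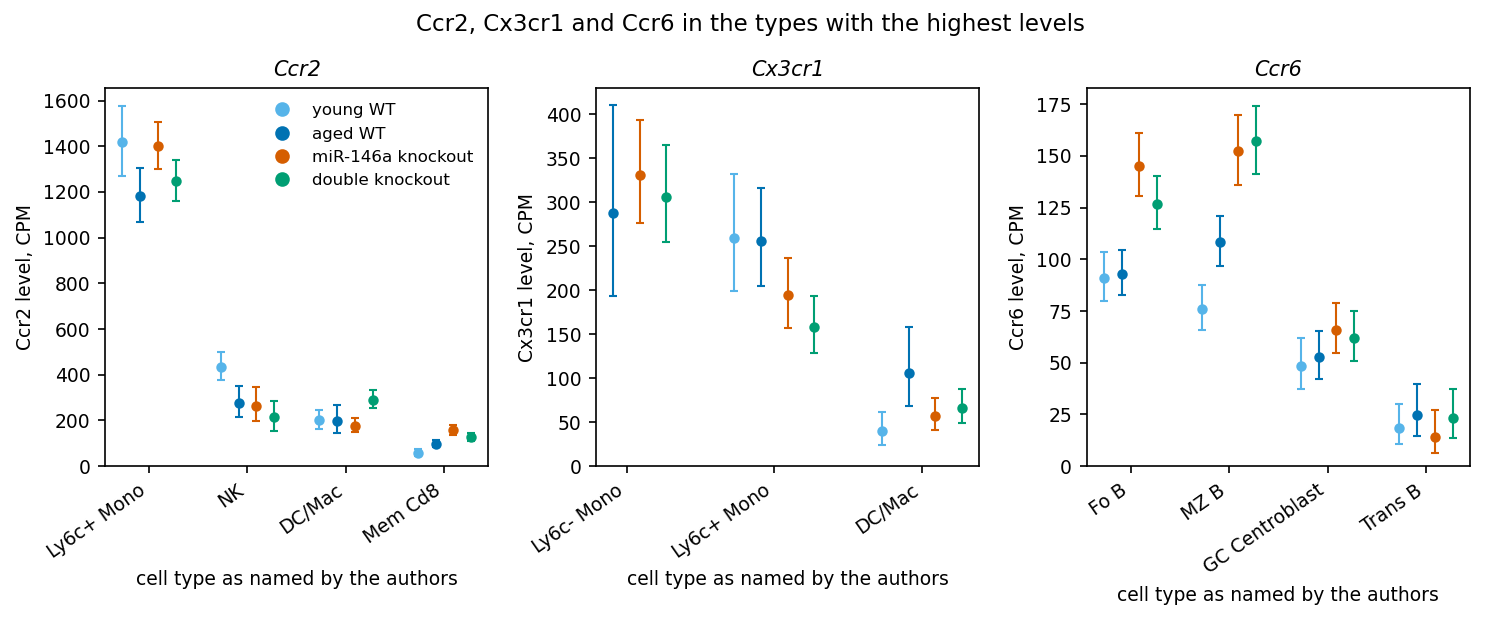
Levels (CPM, linear axes from 0) of Ccr2, Cx3cr1 and Ccr6 in the cell types that lead for each; points are 1 library each, bars the exact Poisson 95% interval, and Ly6c- Mono of young WT (27 cells) is left out. Ccr2 leads in Ly6c+ Mono, Cx3cr1 in Ly6c- Mono, and Ccr6 in Fo B and MZ B lies at 127 to 157 CPM in the knockout libraries and at 76.1 to 108 CPM in the WT ones, with 1.5-fold reached by Fo B of 146aKO against aged WT.

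Cxcr2, the neutrophil receptor for Cxcl1 and Cxcl2 and other chemokines, was mostly a granulocyte gene. Granulocytes held 938 CPM for young WT (39 UMIs, 37 cells), 183 for aged WT (7 UMIs, 16 cells), 89.8 for 146aKO (114 UMIs, 293 cells) and 95.03 for the double knockout (191 UMIs, 461 cells). The knockouts did not differ by 1.5-fold, with a ratio of 1.06 (0.835 to 1.35). The young granulocytes differed in content: their median was 743 UMIs, against 1351.5, 4213 and 4286, and the neutrophil list summed to 66197 CPM against 253008, 341007 and 339229. Those features and the level of Cxcr2 moved together and cannot be told apart here. A UMI was seen in 59.5, 37.5, 30.4 and 29.5% of granulocytes, and no lymphocyte type of any library held more than 4 UMIs. DC/Mac held 0, 4.43, 13.9 and 24.7 CPM.

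Ccr6, the receptor for Ccl20 that places B cells and Th17 cells near mucosal surfaces and in the marginal zone, was a B cell gene here. Fo B held 91.1 CPM for young WT, 93.0 for aged WT, 145 for 146aKO and 127 for the double knockout, from 241 to 376 UMIs. MZ B held 76.1, 108, 152 and 157 CPM. Both knockouts were above both WT libraries in these types, but only the Fo B ratio of 146aKO to aged WT reached 1.5-fold, at 1.56 (1.33 to 1.83); that of MZ B was 1.40 (1.20 to 1.65). With age the ratios were 1.02 (0.858 to 1.22) in Fo B and 1.42 (1.19 to 1.71) in MZ B, and the double knockout stood at 0.874 and 1.03 of 146aKO. Shares of cells thinned to equal depth gave the same order of WT and knockouts in both, 9.18, 8.42, 12.8 and 12.3% in Fo B and 6.91, 9.21, 14.0 and 13.9% in MZ B. In Mem Cd8 the thinned share was 0% in 3 libraries and 0.626% in aged WT.

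GC Centroblast cells held 48.2, 52.8, 65.9 and 61.9 CPM of Ccr6, all inside 1.5-fold. The less mature Trans B held 14.2 to 24.8 CPM. GC Centrocyte cells held 3.74, 47.6, 4.08 and 9.77 CPM, from 1, 15, 3 and 8 UMIs, high only in aged WT. Mem Cd4 was at 14.3, 5.02, 14.9 and 15.0 CPM, with a ratio of 2.97 (1.08 to 10.1) for 146aKO against aged WT that rests on 5 UMIs in aged WT.

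Ccr9, the receptor for Ccl25 that directs cells to thymus and small intestine and is carried by naive CD8 T cells and by plasmacytoid dendritic cells, was far lower in Nai Cd8 of 146aKO than in the other libraries. Nai Cd8 held 173 CPM for young WT (410 UMIs, 156 to 190), 96.7 for aged WT (90 UMIs, 77.8 to 119), 5.80 for 146aKO (2 UMIs, 0.702 to 20.9) and 75.0 for the double knockout (58 UMIs, 57.0 to 97.0). The ratio was 0.560 (0.441 to 0.705) with age and 0.0600 (0.00715 to 0.223) in 146aKO against aged WT. The double knockout stood at 12.9 (3.42 to 109) times 146aKO and at 0.776 (0.548 to 1.09) of aged WT, inside 1.5-fold. A UMI was seen in 36.8, 26.1, 2.15 and 16.7% of Nai Cd8 cells, and in 15.0, 8.81, 0 and 7.92% of those thinned. In Fo B no cell had a UMI in 3 libraries, where 0 UMIs in 1015 to 1775 cells allow a share of up to 0.296%, and 0.190% did in the double knockout. The library of 146aKO had the fewest Nai Cd8 cells (93, against 766, 261 and 240), and these cells had the lowest naive T list (858 CPM against 1642 to 2072) and the highest memory T list (220.3 CPM against 38.3 to 50.5).

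In Nai Cd8 cells with no UMI of S100a4, Itgb1 or Cd44, Ccr9 was at 181, 102, 4.89 and 85.5 CPM, from 383, 79, 1 and 57 UMIs. The value of 146aKO is that of 1 UMI in 55 cells (0.124 to 27.2 CPM), below the interval of aged WT (80.5 to 127 CPM). The part of the naive T list in the Ccr9 level was not tested. Cxcr3 was seen in 3.55% and 4.41% of Nai Cd8 cells with Ccr9 in young and aged WT. It was seen in 0 of 2 such cells in 146aKO and 0 of 40 in the double knockout (exact interval 0 to 8.81%). In the cells without Ccr9 it was seen in 5.37, 15.5, 35.2 and 16.5%. After thinning it was seen in 1 of 115, 0 of 23 and 0 of 19 cells with Ccr9 in young WT, aged WT and the double knockout. The thinned shares without Ccr9 were 2.15, 6.30 and 4.07%, with intervals that overlapped those with Ccr9. In Nai Cd4 Ccr9 was lower, at 29.0, 24.02, 9.22 and 10.3 CPM, and 146aKO stood at 0.384 (0.141 to 0.903) of aged WT. Mem Cd8 held 24.9, 14.5, 4.46 and 6.25 CPM, with a ratio of 0.307 (0.101 to 0.787) in 146aKO.

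DC/Mac held Ccr9 at 167 CPM for young WT (80 UMIs), 26.6 for aged WT (6), 72.1 for 146aKO (52) and 100.1 for the double knockout (73). The lowest library was aged WT here and not 146aKO. The ratios were 0.159 (0.0568 to 0.362), 2.71 (1.16 to 7.72) and 1.39 (0.960 to 2.02). DC/Mac cells with Ccr9 held 1325, 288, 1013 and 668 CPM of Siglech, a lectin of plasmacytoid dendritic cells, against 57.4, 34.8, 6.37 and 12.5 CPM in those without. The plasmacytoid dendritic list in the whole type was at 1869, 834, 904 and 926 CPM, so it too was highest in young WT, and fewer such cells and less Ccr9 per cell cannot be told apart in these sums.

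**Figure D5:**
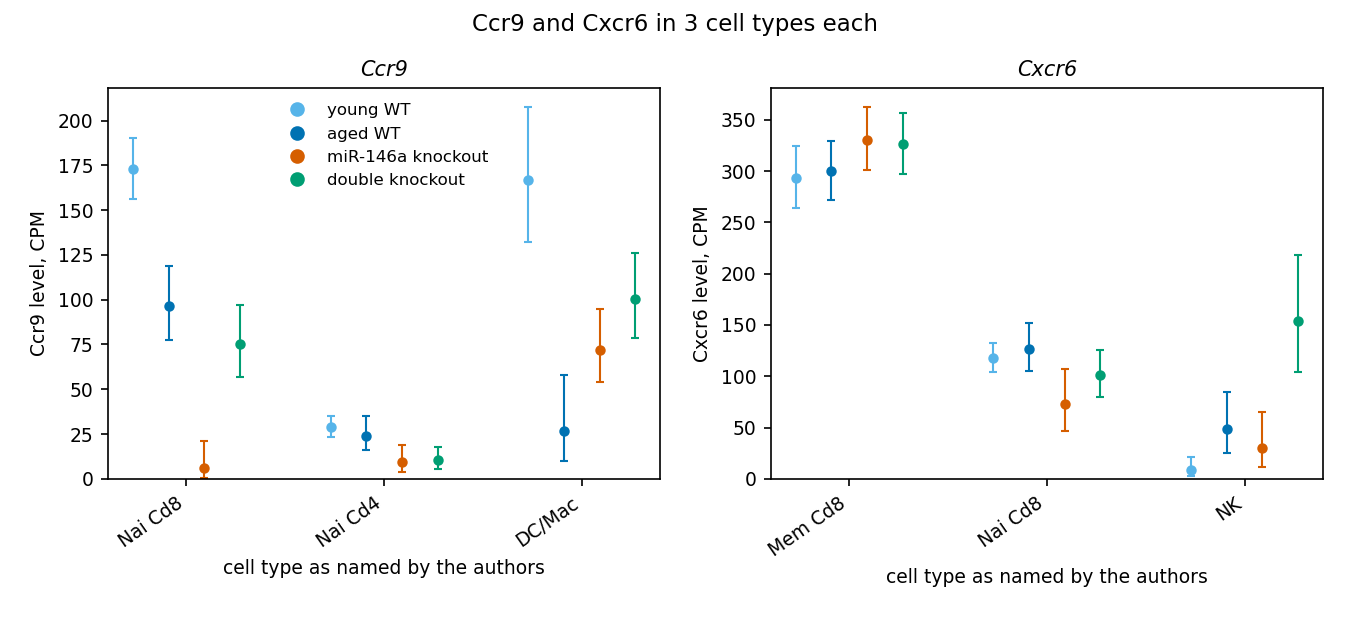
Levels of Ccr9 and Cxcr6 (CPM, linear axes from 0) in 3 cell types each; points are 1 library each and bars the exact Poisson 95% interval. Ccr9 in Nai Cd8 goes from 173 CPM in young WT to 5.80 CPM in 146aKO and 75.0 CPM in the double knockout, while Cxcr6 in Mem Cd8 stays between 293 and 331 CPM.

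Cxcr4, the receptor for Cxcl12 that retains leukocytes in marrow and lymphoid niches, was spread over all classes at low levels. Granulocytes held 48.1 CPM for young WT (2 UMIs), 78.5 for aged WT (3 UMIs, 16 cells), 61.5 for 146aKO and 39.3 for the double knockout (78 and 79 UMIs). The double knockout stood at 0.640 (0.462 to 0.886) of 146aKO. Ly6c- Mono held 42.3, 95.8, 40.7 and 24.3 CPM, from 3, 10, 16 and 10 UMIs, highest in aged WT.

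In lymphocytes Cxcr4 was highest in aged WT in Mem Cd4, Nai Cd8, Mem Cd8, Fo B and MZ B. Fo B held 9.83 CPM for young WT (26 UMIs), 26.7 for aged WT (84), 12.8 for 146aKO (31) and 7.43 for the double knockout (22). The aged WT interval lay above the others, with ratios of 2.72 (1.73 to 4.40) with age, 0.479 (0.307 to 0.732) in 146aKO and 0.579 (0.320 to 1.03) in the double against 146aKO. MZ B held 9.27, 14.8, 4.21 and 3.13 CPM, and Nai Cd8 10.1, 22.6, 5.80 and 6.47 CPM. Mem Cd4 held 2.60 CPM in young WT and 32.1, 26.05 and 15.0 CPM in the aged libraries, a ratio of 12.3 (3.15 to 106) with age that rests on 2 UMIs in young WT. Trans B and GC Centrocyte cells were among the exceptions, with 6.97, 17.5, 44.2 and 17.8 CPM and 29.96, 9.52, 32.7 and 14.7 CPM. Both were highest in 146aKO, at 2.53 (1.25 to 5.46) and 3.43 (1.04 to 17.8) times aged WT. Nai Cd4 and GC Centroblast cells were also highest in 146aKO, at 14.5 and 12.5 CPM, and NK cells in young WT, at 8.47 CPM.

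Fos, an immediate early gene, and Tsc22d3, a glucocorticoid-induced gene, which were chosen after their values were seen, were also highest in aged WT in Fo B. Fos stood at 14.0, 71.3, 29.4 and 43.5 CPM and Tsc22d3 at 240, 411, 187 and 202 CPM. Fos and Tsc22d3 were highest in aged WT in MZ B and Mem Cd8 too, but in Mem Cd4 and Nai Cd8 not both were. They were also highest there in Trans B and GC Centroblast, where Cxcr4 was highest in 146aKO. In Trans B, Fos was at 65.5 CPM in aged WT and 33.1 in 146aKO, and Tsc22d3 at 419 and 186 CPM. Jun, another immediate early gene chosen likewise, was highest in aged WT in Fo B and Mem Cd8. It was highest in 146aKO in Mem Cd4, Nai Cd8, MZ B, Trans B and GC Centroblast. In Trans B, Jun was at 105 CPM in aged WT and 172 in 146aKO. The part of Fos, Jun and Tsc22d3 in the Cxcr4 levels was not tested. In the double knockout against aged WT, Cxcr4 was lower in 8 of 10 types, down to 0.211 (0.0801 to 0.475) in MZ B and 0.278 (0.165 to 0.448) in Fo B.

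Genes with the most similar pattern over the 61 type-library sums with at least 30 cells, by Pearson correlation of log2(CPM + 10) among 9273 genes, were as follows. Sums of 1 library share its depth and free RNA, so these are descriptions. For Cxcr3 they were Il2rb (0.867), Sh2d1a (0.867) and Sh2d2a (0.865), and for Cxcr6 Klk8 (0.856), Ctsw (0.840) and Hid1 (0.839). Cx3cr1 was closest to Tmem51 (0.959), Skint3 (0.951) and Csf1r (0.949), the last the receptor for macrophage colony-stimulating factor. Cxcr2 was closest to Hdc (0.883), Mmp9 (0.880) and Ceacam10 (0.876), and Ccr6 to Fcer2a (0.856), Trim7 (0.850) and Fcrl1 (0.847). Ccr2 was closest to Camk1 (0.810), Zyx (0.801) and Ahnak (0.80), and Ccr9 to Nme4 (0.805), Bend4 (0.781) and Auts2 (0.724). Cxcr4 had no close match, with Ppp1r2 (0.622), St3gal5 (0.615) and Lmo4 (0.609).

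Other genes of the pathway were read in T, B and myeloid cells as wholes. Of 16 other chemokine receptors, 6 were measured in T cells, and with age 5 were higher and 1 lower, against a background of 13.9 percent and 3.71 percent in T cells. Ccr10 had the highest ratio, 7.001 (2.26 to 28.8), and Ccr7, the receptor that brings naive T cells into lymphoid tissue, the lowest (0.620, from 371 to 230.1 CPM). In 146aKO against aged WT 2 were higher and 2 lower in T cells, where 10.2 percent and 5.66 percent of all genes were. In the double against 146aKO 1 was higher and 3 lower, against 3.91 percent and 7.71 percent, and the higher one was Ccr7 at 2.25 (2.00 to 2.55), from 92.7 to 209 CPM.

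Among the receptors' 16 ligands, 3 were measured in T cells with age and 1 was higher, against 13.9 percent of all genes there. This was the Cxcr3 ligand Cxcl10, at 10.3 CPM in aged WT against 0.626 in young WT, a ratio of 16.5 (6.57 to 53.0). It stood at 23.0 CPM in T cells of 146aKO and 26.6 CPM in those of the double knockout. In myeloid cells Cxcl10 was lower in the knockouts, at 25.4 CPM in aged WT, 6.59 in 146aKO and 12.8 in the double knockout. The ratio of 146aKO to aged WT there was 0.259 (0.129 to 0.524). Of 5 ligands measured, 3 were lower and 1 higher in that comparison, against 30.6 percent and 10.4 percent of all genes. Of 14 adhesion and egress genes, 13 were measured in T cells. With age 6 were higher and 0 lower, against 13.9 percent and 3.71 percent of all genes. In 146aKO against aged WT 1 was higher and 2 lower, where 10.2 percent and 5.66 percent of all genes were. The ratios ran from Itgae (2.16), an integrin chain that binds epithelium, to S1pr5 at 0.523 (0.287 to 0.919), a sphingosine 1-phosphate receptor of egress. In the double against 146aKO 3 were higher and 1 lower, against 3.91 percent and 7.71 percent of all genes. Here the ratios ran from S1pr5 at 1.85 (1.06 to 3.35) to Itgae at 0.661 (0.534 to 0.818). In myeloid cells of 146aKO against aged WT, where 10.4 percent of all genes were higher and 30.6 percent lower, 3 of 7 other receptors were higher and 2 lower, from Cmklr1 at 4.66 (0.742 to 194, with 1 UMI in aged WT) to Ccr7 at 0.203 (0.141 to 0.292).

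Levels over a whole class mix levels per cell type with shares of types. In T cells as a whole Cxcr3 was 3.21 times higher in aged than in young WT, and 1.81 times with both libraries set to the aged WT mix of types. Ccr9 in T cells as a whole stood at 0.134 of aged WT in 146aKO, and at 0.166 with the mix held.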

How the data were processed

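The authors deposited raw UMI counts per gene and barcode, made with Cell Ranger 3.0.0 on mm10, per the submitters' processing notes. They also deposited a cell type name for each annotated barcode, a label rather than a measurement (unit: other); how names were given is not stated in the sources used here. Both 3′ and 5′ chemistry are named in the labels. Doublets were not called again. The authors' T/B dbl type was kept as a type of its own, and its ratios are among those counted. Unannotated barcodes (3434) were left out of the comparisons.

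UMIs were summed per type and library and divided by that type's total. Sums have exact Poisson intervals, shares Clopper-Pearson intervals and ratios conditional binomial intervals, at 95%. Libraries are pools, so intervals leave out the spread between mice. To compare shares, cells were thinned to 1000 UMIs, leaving out shallower cells. The named genes were the 8 receptors, the 3 genes most like each (among genes with at least 200 UMIs) and the extremes of fixed lists, from whose sums and counts genes not reported here were left out; members, lists and the cell pairs were chosen with earlier results of these data known. Alternatives used TMM factors (edgeR 4.0.16), size factors (DESeq2 1.42.0) on the counts, other minimums and other cells. Intervals were tested on simulated data. Python 3.11.15, scipy 1.17.1 and R 4.3.3 were used.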

Additional observations from a re-analysis of the deposited data

Results flagged for a closer look

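The Cxcr3 ratios of 146aKO to aged WT lay on both sides of 1 in different types. The ratio was 2.44 in Nai Cd4, 3.02 in Nai Cd8 and 3.41 in Fo B, but 0.295 in GC Centrocyte, each with an interval wholly beyond 1.5-fold. With 1 library per group the difference between types was not tested. In GC Centrocyte cells the T cell list was at 1780 CPM in aged WT and 359 CPM in 146aKO. Among GC Centrocyte cells with no T cell marker UMI the ratio was 0.797 (0.230 to 3.48), inside 1.5-fold, from 10 against 4 UMIs.

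Barcodes without a cell type name also held receptor UMIs. Those of 146aKO had Ccr2 at 176 CPM (164 to 188), against 45.6 CPM in young WT, 18.6 in aged WT and 57.4 in the double knockout. Cxcr4 in the same barcodes was at 18.4 CPM (14.7 to 22.6), against 8.42 CPM in young WT, 18.9 in aged WT and 11.9 in the double knockout.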

How the results depend on the processing

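Scaling by TMM or size factors, or leaving immunoglobulin, haemoglobin, mitochondrial and ribosomal protein genes out of the total, moved none of 193 values each. Over all settings 1181 values stayed within their counting interval or within 1.5 times, 32 moved and 4 changed direction. Ccr2 in Gran for the double against 146aKO went from 2.90 to 0.298 without cells above 5000 UMIs, the latter from 3 UMIs. With the aged WT mix of types, Cxcr3 in myeloid cells went from 0.660 to 1.1225 with age, and Ccr2 in myeloid cells from 0.450 to 1.14 in 146aKO and from 0.412 to 1.09 in the double knockout, both against aged WT; the mix is what this setting changes.

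Counts of higher and lower ratios depended on the minimum. The shares over all genes given above hold for the main rule only. The counts below are thus not set against a background and show only how they depend on the rule. With 1 UMI they were 33 and 21 with age, 27 and 28 in 146aKO against aged WT, 17 and 29 in the double against 146aKO, and 17 and 30 in the double knockout against aged WT. With 50 UMIs the age comparison gave 11 and 4, 146aKO 7 lower, the double against 146aKO 3 and 7, and against aged WT 4 and 8. At 2-fold, 2 were lower with age, 7 higher in 146aKO, and 4 higher and 5 lower in the double against 146aKO. With the interval wholly beyond 1.5-fold, the counts were 7 and 1, 3 and 5, 2 and 0, and 3 and 5 in the order above. Without cells above 5000 UMIs, 8 were lower in 146aKO and 10 in the double knockout against aged WT. Fewer ratios were then taken.

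No paired analysis was possible because each group had 1 library, and for the same reason no library was left out. Depth limits the types with few cells: NK and granulocyte ratios, and ratios from under 50 UMIs, have wide intervals, and differences between mice are not covered by any interval here. Leaving out T/B dbl cells, and cells without memory or T cell markers, were settings chosen after seeing the data.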
